A study of Homo sapiens with 6 samples.

Results

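The 10 genes described here are cyclin-dependent kinase (CDK) inhibitors and G1 cyclins of human cells, and they were taken by their symbols from a table of 23355 genes. They were the CIP/KIP inhibitors CDKN1A, CDKN1B and CDKN1C, the INK4 inhibitors CDKN2A, CDKN2B and CDKN2C, the D-type cyclins CCND1, CCND2 and CCND3, and CCNE1, an E-type cyclin. The INK4 inhibitor CDKN2D and the E-type cyclin CCNE2 were not among the 10 and are described with the gene lists. Their RNA was measured in HFL-1, a human fetal lung fibroblast line, 48 h after transient transfection with siRNA. The cells received a non-targeting control siRNA (siNTC) or either of 2 siRNAs against TAZ (siTAZ #1 and siTAZ #2), and each of the 3 groups had 2 libraries, which the series calls biological replicates. The labels give no other treatment to any group, and the whole comparison rests on 1 cell line with some TAZ RNA left in every library.

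The D-type cyclins activate CDK4 and CDK6, and the E-type cyclins activate CDK2, and these kinases phosphorylate the retinoblastoma protein so that E2F transcription factors can switch on the genes of S phase. INK4 proteins bind CDK4 and CDK6 alone, whereas CIP/KIP proteins bind complexes of cyclin and kinase and are best known for holding CDK2 in check. In fibroblasts, p21 (CDKN1A) is a classical effector of cell cycle arrest after DNA damage, p27 (CDKN1B) marks quiescent cells, and p15 (CDKN2B) is known as a gene induced by TGF-β. TAZ itself is a transcriptional coactivator that reaches DNA through TEAD factors.

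The deposited values were raw read counts per gene, and the libraries summed to between 15648055 and 32078188 counts. Levels are given as CPM, in which the counts of a gene are scaled to a common library size after TMM normalization, and differences as log2 fold changes from a single fit of the 6 libraries by edgeR's quasi-likelihood test, with Benjamini-Hochberg adjusted p-values (FDR) over 14053 genes tested and a threshold of 0.05. WWTR1, the gene of TAZ, stood at 132 and 131 CPM with siNTC, at 26.4 and 28.4 CPM with siTAZ #1 and at 46.1 and 43.1 CPM with siTAZ #2. The difference on the log2 scale was -2.26 with siTAZ #1 (SE 0.10, FDR 0.00062) and -1.56 with siTAZ #2 (SE 0.10, FDR 0.00068). Nearly no counts were left in siTAZ #1 replicate 2 between RANGAP1 on chromosome 22 and the end of Y, a region with 576 tested genes. Those above 1 CPM in siTAZ #1 replicate 1 had a median of 1.41% of that level in replicate 2. None of the 10 genes lies in this region (0 of 10), but it raised the common dispersion of the fit to 0.0807, against 0.0163 without the region. All 7 fibroblast markers were present, with the lowest, LUM, at a mean of 75.3 CPM. Their summed level was 28505 to 29205 CPM with siNTC, 17090 to 17962 CPM with siTAZ #1 and 22858 to 23851 CPM with siTAZ #2. The 5 epithelial markers summed to between 0.774 and 2.99 CPM. Of the 4 endothelial markers, 2 reached 1 CPM, and of the 4 leukocyte markers 1 did, CD68, which fibroblasts also express. The endothelial sum was 26.0 to 31.2 CPM with siTAZ #2 and 42.0 to 47.2 CPM in the other libraries, and the leukocyte sum was 37.9 to 48.4 CPM against 69.0 to 75.7 CPM. The part of these markers in the results was not tested. In bulk RNA, fewer cells of a type and less RNA per cell cannot be told apart.

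To show the DNA that a coactivator could act on, the 250 bases before the transcription start of RefSeq (GRCh38.p14) were read for the members that had one, which were 7 of 10 with 12 windows in all. The windows of CDKN1A, CDKN1B and CDKN2B are printed because these 3 genes carried the largest differences, CDKN1A and CDKN1B in opposite directions with siTAZ #2 and CDKN2B in the same direction with both siRNAs. The window of CDKN1A is chr6:36678464-36678713 (plus strand), that of CDKN1B chr12:12717118-12717367 (plus strand) and that of CDKN2B chr9:22009306-22009555 (minus strand), and each is written 5′ to 3′ on the strand of the gene. Capitals mark matches on either strand to GGGCGG, the core of the Sp1 site, or to GGAATG, the core of the TEAD site, whose reverse complement is CATTCC.
CDKN1A: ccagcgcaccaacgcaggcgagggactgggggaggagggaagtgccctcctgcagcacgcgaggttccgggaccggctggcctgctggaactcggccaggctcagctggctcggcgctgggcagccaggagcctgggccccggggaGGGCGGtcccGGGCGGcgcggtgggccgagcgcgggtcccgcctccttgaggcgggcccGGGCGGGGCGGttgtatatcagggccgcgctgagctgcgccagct
CDKN1B: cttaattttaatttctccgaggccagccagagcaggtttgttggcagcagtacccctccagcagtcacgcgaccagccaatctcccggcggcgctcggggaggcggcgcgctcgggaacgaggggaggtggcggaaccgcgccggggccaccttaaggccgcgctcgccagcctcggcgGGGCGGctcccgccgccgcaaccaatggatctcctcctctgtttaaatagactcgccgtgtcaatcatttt
CDKN2B: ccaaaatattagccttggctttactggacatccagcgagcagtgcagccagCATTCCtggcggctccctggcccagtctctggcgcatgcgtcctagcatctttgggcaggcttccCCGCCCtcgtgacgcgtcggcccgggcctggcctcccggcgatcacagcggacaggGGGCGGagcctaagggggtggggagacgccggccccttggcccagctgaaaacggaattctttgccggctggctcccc
The CDKN1A window held 4 Sp1 matches, at 104 to 99, 94 to 89, 45 to 40 and 40 to 35 bases before the start, the last pair sharing a base. The CDKN1B window held 1, at 71 to 66 bases. The CDKN2B window held 2 Sp1 matches and 1 TEAD match on the opposite strand, 199 to 194 bases before the start. A TEAD match was also present in 2 of the 3 windows of CDKN2C and in 1 of the 3 windows of CCND3. Of all 35116 RefSeq windows of this length, 11.9% held a TEAD match and 42.6% an Sp1 match. No member window matched TGANTCA (AP-1, 6.57% of all windows), TTTCCCGC or TTTGGCGC (E2F, 1.93%), TGACGTCA (CRE, 1.65%), each searched on both strands, or TATAAA on the strand of the gene (TATA box, 6.8%). A match gives the letters of a window and not a bound site.

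All 10 genes passed the filter on low counts. With siTAZ #1, 3 of the 10 rose (CDKN2B, CCND1 and CCND3), 0 fell and 7 were not called. At an unadjusted p under 0.05, 1 gene was lower (CDKN1A), and DESeq2 called the same gene. Among all genes tested in that comparison, 10.8% rose and 9.78% fell. With siTAZ #2, 3 rose (CDKN1A, CDKN2B and CCND1), 3 fell (CDKN1B, CDKN2C and CCND2) and 4 were not called, where 14.1% of all genes rose and 14.4% fell. Of those not called, CCNE1 was lower and CCND3 higher at an unadjusted p under 0.05, and DESeq2 called both. The median absolute log2 fold change of the 10 was 0.34 with siTAZ #1 (0.37 over all genes tested) and 0.95 with siTAZ #2 (0.41 over all genes tested). Tested directly against each other, the siRNAs differed for 5 of the 10, with 4 higher in siTAZ #1 (CDKN1B, CDKN2A, CDKN2C and CCND2; 15.2% of all genes) and 1 lower (CDKN1A; 13.4% of all genes). Without siNTC replicate 1 or 2, the 3 genes called with siTAZ #1 became 1 (CDKN2B), while the share of all genes called went from 20.6% to 4% and 3.8%. In the same order, the 6 called with siTAZ #2 became 4 and 3, with 9.59% and 9.08% of all genes called in place of 28.5%. Without siTAZ #2 replicate 1 or 2, these 6 became 4 and 3 (13.3% and 12.5% of all genes), and the 5 called between the siRNAs became 3 in each case (14.4% and 12.3% of all genes in place of 28.6%). Both comparisons with siNTC use the same 2 siNTC libraries, so their values are given side by side and not as separate evidence.

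**Figure D1:**
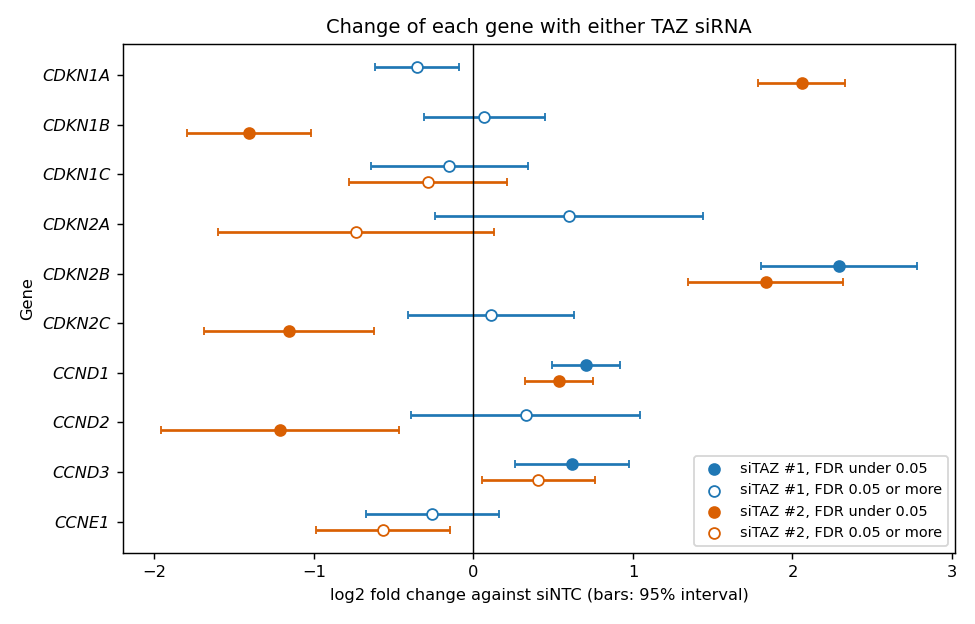
Each point is the log2 fold change of 1 gene (rows) against siNTC, in blue with siTAZ #1 and in orange with siTAZ #2, with its 95% interval, and points are filled where the FDR was under 0.05. CDKN2B and CCND1 are filled to the right of 0 with both siRNAs, while CDKN1A is filled at 2.06 and CDKN1B at -1.40 with siTAZ #2 alone.

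CDKN1A (chr6, 36644237 to 36655114 on GRCh37) encodes p21, which binds cyclin and CDK complexes as well as PCNA. It stood at 826 and 763 CPM with siNTC, at 665 and 580 CPM with siTAZ #1, and at 3143 and 3473 CPM with siTAZ #2. The 3 groups did not overlap, and the siTAZ #2 libraries lay far above the other 4. CDKN1A rose by 2.06 on the log2 scale with siTAZ #2 (SE 0.11, 95% interval 1.78 to 2.33, FDR 0.00062), and the call held under all 17 alternative settings, with values from 1.96 to 2.13. With siTAZ #1 the value pointed the other way, at -0.35 (SE 0.11, FDR 0.070), and was not called. It passed the threshold under 4 of the 17 settings, among them DESeq2 (FDR 0.0068), the fit without the region that begins at RANGAP1 (-0.37, FDR 0.0124) and the fit without siTAZ #1 replicate 1 (FDR 0.00069). The direct difference between the siRNAs was -2.41 (siTAZ #1 minus siTAZ #2, SE 0.11, FDR 0.0005). The 10 genes together took 0.183% to 0.247% of all counts in the siNTC and siTAZ #1 libraries and 0.467% and 0.501% in those of siTAZ #2, where CDKN1A alone had 67231 and 57505 counts.

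CDKN1B (chr12, 12838432 to 12875303) encodes p27, the inhibitor whose protein is removed by the SKP2 ubiquitin ligase on entry into S phase. Its levels were 95.9 and 85.6 CPM with siNTC, 81.9 and 108 CPM with siTAZ #1 and 35.5 and 33.0 CPM with siTAZ #2. The siNTC and siTAZ #1 libraries overlapped, and both siTAZ #2 libraries were below all others. CDKN1B fell by 1.40 on the log2 scale with siTAZ #2 (SE 0.16, 95% interval -1.79 to -1.02, FDR 0.0026), and no alternative setting ended the call (highest FDR 0.0315). With siTAZ #1 the log2 fold change was 0.07 (95% interval -0.31 to 0.45, FDR 0.78), and its sign turned to -0.02 without siNTC replicate 2 and to -0.15 without siTAZ #1 replicate 2. The siRNAs differed by 1.47 (SE 0.16, FDR 0.0023). The RNAs of p21 and p27 thus moved in opposite directions with siTAZ #2.

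CDKN1C (chr11, 2904443 to 2907005), an imprinted gene encoding p57, was the lowest CIP/KIP member. It stood at 7.61 and 8.52 CPM with siNTC, 6.84 and 7.67 CPM with siTAZ #1 and 7.01 and 6.22 CPM with siTAZ #2. On the log2 scale it differed from siNTC by -0.15 with siTAZ #1 (95% interval -0.64 to 0.34, FDR 0.63) and -0.28 with siTAZ #2 (95% interval -0.78 to 0.21, FDR 0.34), on 103 to 250 counts per library. With 1 library left out, the value with siTAZ #1 ranged from -0.24 to -0.07, and the offset for GC content moved that with siTAZ #2 to -0.60 (FDR 0.076). Of its imprinted neighbours, KCNQ1, H19 and IGF2 did not pass the filter on low counts. Over all genes tested, 10.8% rose with siTAZ #1 and 14.1% with siTAZ #2, and 1 of the 3 tested neighbours rose with each siRNA. These were PHLDA2, at 0.98 with siTAZ #1 (FDR 0.021), and SLC22A18, at 0.89 with siTAZ #2 (FDR 0.028). Each call was lost without siNTC replicate 1 or 2 (highest FDR over all settings 0.136 for PHLDA2 and 0.233 for SLC22A18), and that of SLC22A18 was also lost without siTAZ #2 replicate 1 or 2 and with the offset for GC content, which moved it to 0.39.

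**Figure D2:**
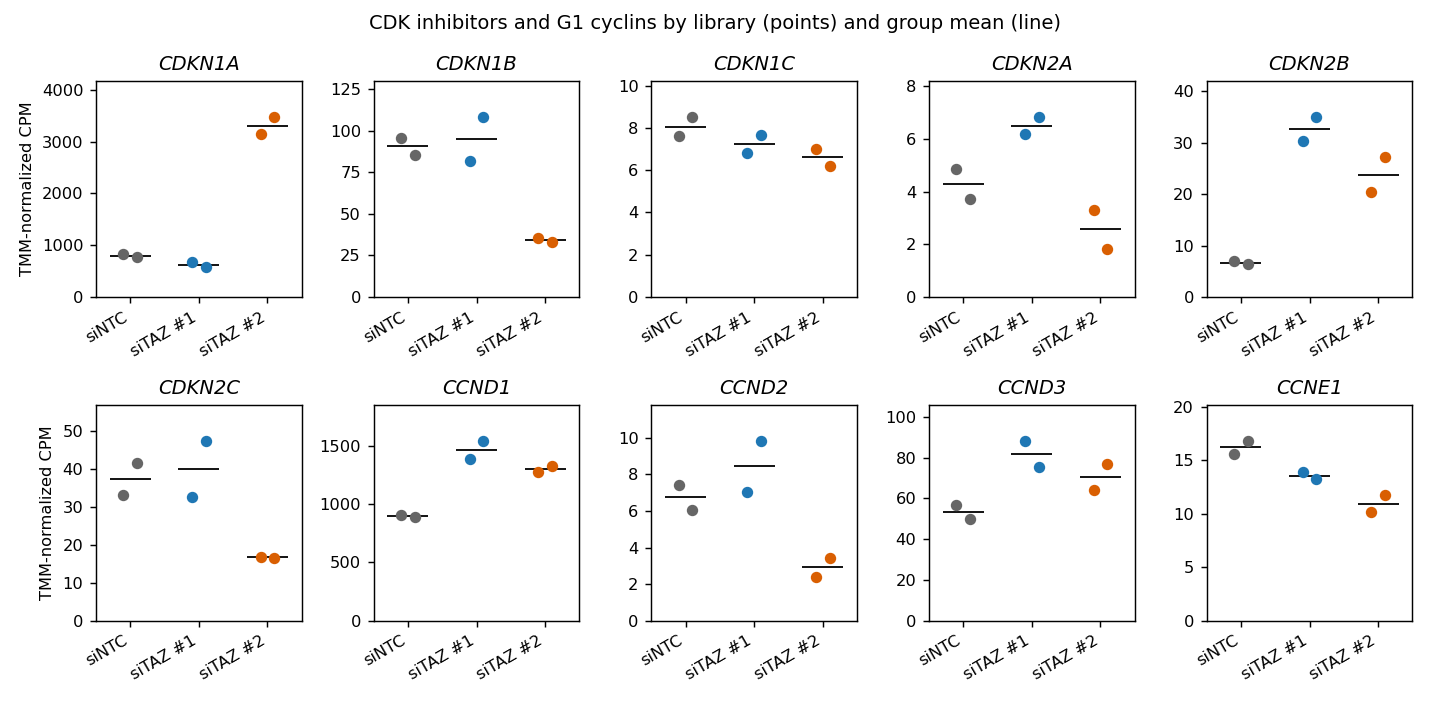
TMM-normalized CPM of the 10 genes (panels, linear axes from 0) in each library (points) of siNTC, siTAZ #1 and siTAZ #2, with the group mean as a line. CDKN1A stands at 3143 and 3473 CPM with siTAZ #2 against 580 to 826 CPM elsewhere, and the siTAZ #2 libraries are the lowest for CDKN1B, CDKN2C and CCND2.

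CDKN2B (chr9, 22002902 to 22009304, minus strand) encodes p15INK4b and rose with both siRNAs. It was at 6.91 and 6.44 CPM with siNTC, at 30.4 and 35.0 CPM with siTAZ #1 and at 20.3 and 27.2 CPM with siTAZ #2, which are 102 to 109 counts per library in the controls and 435 to 1141 counts with siTAZ. All 4 siTAZ libraries were far above both siNTC libraries. On the log2 scale the difference from siNTC was 2.29 with siTAZ #1 (SE 0.20, 95% interval 1.80 to 2.78, FDR 0.0018) and 1.83 with siTAZ #2 (SE 0.20, 95% interval 1.35 to 2.32, FDR 0.0023), and both calls held under every alternative setting (highest FDR 0.0355 and 0.0332). The siRNAs differed by 0.46 (95% interval -0.002 to 0.92, FDR 0.12), a difference that was not called, although the libraries of siTAZ #1 were higher and did not overlap with those of siTAZ #2. It passed without siTAZ #1 replicate 1 (FDR 0.0414). CDKN2B had the lowest FDR and the largest log2 fold change of the 10 genes with siTAZ #1.

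CDKN2A (chr9, 21967751 to 21995300, minus strand), the neighbour of CDKN2B, encodes both p16INK4a and p14ARF from alternative first exons, which gene-level counts do not separate. It was at 4.88 and 3.72 CPM with siNTC, 6.19 and 6.84 CPM with siTAZ #1 and 3.32 and 1.81 CPM with siTAZ #2, on 30 to 223 counts. The 3 groups did not overlap. Neither value against siNTC was called, at 0.60 with siTAZ #1 (95% interval -0.24 to 1.44, FDR 0.27) and -0.73 with siTAZ #2 (95% interval -1.60 to 0.13, FDR 0.17). The second was -1.25 without siTAZ #2 replicate 1 and -0.40 without siTAZ #2 replicate 2, on the same side of the threshold. The direct difference was called at 1.34 (SE 0.35, FDR 0.036), but it was lost under 6 settings, among them the omission of siNTC replicate 1 (FDR 0.0682) or 2 (FDR 0.0680), that of siTAZ #2 replicate 2 (0.98, FDR 0.129) and edgeR's exact test on 4 libraries (FDR 0.0527). The long non-coding RNA CDKN2B-AS1 spans both genes on the opposite strand, with no overlap of canonical exons. The strand setting of the counting is not given in the sources used here, so reads of the 2 strands could not be told apart. CDKN2B-AS1 had 5 to 24 counts per library and was not called in any of the 3 comparisons (FDR 0.60 to 0.89).

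CDKN2C (chr1, 51426417 to 51440306) encodes p18INK4c and supplied most of the transcript summed over CDKN2A, CDKN2B and CDKN2C. Its levels were 33.0 and 41.3 CPM with siNTC, 32.6 and 47.3 CPM with siTAZ #1 and 16.8 and 16.5 CPM with siTAZ #2. The replicates of siNTC and siTAZ #1 were wide apart and overlapped, while both siTAZ #2 libraries were below them. CDKN2C fell by 1.16 on the log2 scale with siTAZ #2 (SE 0.22, FDR 0.013), a call lost when siNTC replicate 2 (FDR 0.0835) or replicate 1 (FDR 0.0759) or 2 (FDR 0.0763) of siTAZ #2 was left out. With siTAZ #1 it was at 0.11 (95% interval -0.41 to 0.63, FDR 0.75), which turned to -0.06 without siNTC replicate 1 and to -0.19 without siTAZ #1 replicate 2. The direct difference of 1.26 (SE 0.22, FDR 0.0093) was lost when replicate 1 (FDR 0.0612) or 2 (FDR 0.0663) of siTAZ #2 was left out. With siTAZ #2, the INK4 genes CDKN2B and CDKN2C moved in opposite directions.

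CCND1 (chr11, 69455924 to 69469242), cyclin D1, was the D-type cyclin that rose with both siRNAs. It was at 905 and 892 CPM with siNTC, 1387 and 1545 CPM with siTAZ #1 and 1279 and 1331 CPM with siTAZ #2, and all 4 siTAZ libraries were above both siNTC libraries. CCND1 rose by 0.71 on the log2 scale with siTAZ #1 (SE 0.09, 95% interval 0.49 to 0.92, FDR 0.0050) and by 0.54 with siTAZ #2 (SE 0.09, 95% interval 0.33 to 0.75, FDR 0.0078). Over all 17 settings the first value ranged from 0.63 to 0.81 and the second from 0.48 to 0.66, but the calls did not hold in each. The FDR with siTAZ #1 was 0.0669 without siNTC replicate 1, 0.0699 without siNTC replicate 2 and 0.138 in the exact test. For siTAZ #2, it was 0.0803 and 0.0883 without these siNTC libraries and 0.0622 without siTAZ #2 replicate 2. The siRNAs differed by 0.17 (95% interval -0.04 to 0.38, FDR 0.20), which passed the threshold without siTAZ #1 replicate 1 (FDR 0.0293).

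CCND3 (chr6, 41902672 to 42018095, minus strand), cyclin D3, was at 56.8 and 49.9 CPM with siNTC, 88.3 and 75.4 CPM with siTAZ #1 and 64.3 and 77.1 CPM with siTAZ #2. All siTAZ libraries were above the controls, and the siRNAs overlapped. The log2 fold change was 0.62 with siTAZ #1 (SE 0.14, FDR 0.034) and 0.41 with siTAZ #2 (SE 0.14, FDR 0.086), and both lay close to the threshold. The first was lost under 7 settings, including the omission of replicate 1 (FDR 0.123) or 2 (FDR 0.204) of siNTC and of replicate 1 (FDR 0.0509) or 2 (FDR 0.0573) of siTAZ #2. The second passed under 6, including DESeq2 (FDR 0.0353) and the omission of replicate 1 (FDR 0.0134) or 2 (FDR 0.0118) of siTAZ #1. The direct difference was 0.21 (95% interval -0.14 to 0.57, FDR 0.33), and an offset for GC content moved it to 0.41 (FDR 0.0408).

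CCND2 (chr12, 4378937 to 4414519), cyclin D2, was scarce, on 51 to 321 counts per library. It was at 7.42 and 6.06 CPM with siNTC, 7.03 and 9.85 CPM with siTAZ #1 and 2.38 and 3.44 CPM with siTAZ #2. The siTAZ #2 libraries were the lowest, and the other groups overlapped. CCND2 fell by 1.21 on the log2 scale with siTAZ #2 (SE 0.30, 95% interval -1.96 to -0.47, FDR 0.033). This call was lost under 5 of the 17 settings. These were the omission of replicate 1 or 2 of siNTC, that of replicate 1 or 2 of siTAZ #2, and a block for replicate number. With siTAZ #1 CCND2 was at 0.33 (95% interval -0.39 to 1.05, FDR 0.47), and at 0.06 to 0.55 with 1 library left out, the lowest without siTAZ #1 replicate 2. The direct difference was 1.54 (SE 0.30, FDR 0.015) and was lost without siTAZ #2 replicate 1 (FDR 0.0799).

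CCNE1 (chr19, 30302898 to 30315219), cyclin E1, the partner of CDK2, was not called in any comparison. It was at 15.6 and 16.8 CPM with siNTC, 13.9 and 13.2 CPM with siTAZ #1 and 10.1 and 11.8 CPM with siTAZ #2, so that the groups did not overlap. On the log2 scale it differed from siNTC by -0.26 with siTAZ #1 (95% interval -0.67 to 0.16, FDR 0.34) and -0.57 with siTAZ #2 (95% interval -0.99 to -0.15, FDR 0.055). The value with siTAZ #2 passed the threshold under 7 of the 17 settings, including the omission of replicate 1 (FDR 0.0270) or 2 (FDR 0.0274) of siTAZ #1.

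To compare levels between genes, CPM were divided by the length of the canonical transcript in kilobases, with the caveat that the isoform in use was not measured. In siNTC cells, CDKN1A was the highest at 375 ± 21.1 CPM per kb (SD, n = 2), followed by CCND1 at 212 ± 2.10. CDKN1B (37.6) and CDKN2C (37.3) came next with libraries that overlapped, then CCND3 (26.3) and CCNE1 (8.30). CDKN1C (4.55) and CDKN2A (4.40) overlapped too, and CDKN2B (1.73 ± 0.0868) and CCND2 (1.04 ± 0.148) closed the order. With siTAZ #1, CCND1 led at 346 ± 26.4 CPM per kb and CDKN1A followed at 294 ± 28.5, and CDKN2B stood above CCNE1, CDKN2A and CDKN1C at 8.48 ± 0.846. CCND3, CDKN2C and CDKN1B overlapped there between 32.8 and 47.6. With siTAZ #2, CDKN1A stood at 1563 ± 110 CPM per kb, CCND1 at 308 ± 8.61 and CCND3 at 34.9 ± 4.47. Below these came CDKN2C at 16.7 ± 0.165 and CDKN1B at 14.2 ± 0.729, while CDKN2B (6.17 ± 1.27) overlapped with CCNE1 (5.61 ± 0.591). The ratio of CDKN1A to CCND1 in CPM per kb was 1.83 and 1.71 in the siNTC libraries, 0.960 and 0.751 with siTAZ #1, and 4.92 and 5.22 with siTAZ #2. The inhibitor was therefore above the cyclin with siNTC and siTAZ #2 and below it with siTAZ #1.

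Summed by family, the CIP/KIP genes made 434 and 401 CPM per kb with siNTC, 352 and 323 with siTAZ #1 and 1503 and 1658 with siTAZ #2. CDKN1A supplied 84.7% to 89.9% of this sum with siNTC and siTAZ #1 and 98.8% and 99.0% with siTAZ #2. The ratio of CDKN1A to CDKN1B was 9.81 and 10.1 with siNTC, 9.24 and 6.09 with siTAZ #1, and 101 and 120 with siTAZ #2. CDKN2A, CDKN2B and CDKN2C (without CDKN2D, the fourth INK4 gene) summed to 39.9 and 47.0 CPM per kb with siNTC, 47.0 and 63.6 with siTAZ #1 and 25.5 and 25.6 with siTAZ #2. CDKN2B supplied 4.49% and 3.55% of this INK4 sum with siNTC, 16.8% and 14.3% with siTAZ #1, and 20.7% and 27.7% with siTAZ #2. CDKN2C supplied 65.1% to 88.4% of the same sum over 3 genes. The D-type cyclins summed to 243 and 236 CPM per kb with siNTC, 372 and 403 with siTAZ #1 and 334 and 353 with siTAZ #2, with 88.0% to 90.4% of it from CCND1 in each library. These sums and shares are descriptions and were not tested.

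**Figure D3:**
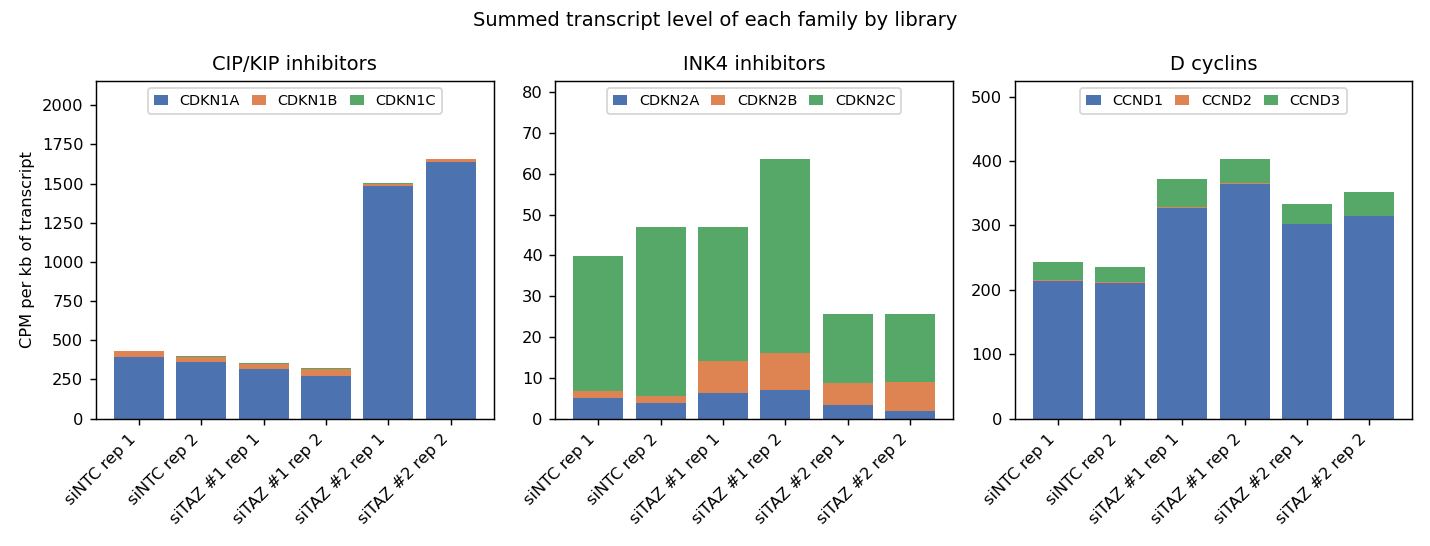
Stacked bars give, for each library (x axis), the summed CPM per kb of transcript (y axis, from 0, a separate scale in each panel) of the CIP/KIP inhibitors, the INK4 inhibitors without CDKN2D, and the D-type cyclins, coloured by gene. The CIP/KIP bars reach 1503 and 1658 with siTAZ #2 against 323 to 434 elsewhere, nearly all of it CDKN1A, while the INK4 bars are lowest with siTAZ #2 at 25.5 and 25.6.

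The G1 CDKs, on which these proteins act, and the other cyclin partners differed between the siRNAs, with 4 of the 5 tested genes higher and 1 lower in siTAZ #1 by the direct test. Against siNTC, 2 of the 5 rose with siTAZ #1, and 1 rose and 3 fell with siTAZ #2. For these and the following lists, 10.8% of all genes rose and 9.78% fell with siTAZ #1, and 14.1% rose and 14.4% fell with siTAZ #2. In the direct test, 15.2% of all genes were higher and 13.4% lower in siTAZ #1. The total called against siNTC was smaller when a siNTC or siTAZ #2 library was left out. The median log2 fold change of the 5 tested genes was 0.40 with siTAZ #1 and -1.17 with siTAZ #2 (0.016 and 0.015 over all genes tested). CDK2, the target of cyclin E and of p21 and p27, had a mean level of 39.7 CPM with siTAZ #2, against 96.7 CPM in the controls and 95.7 CPM with siTAZ #1, and fell by 1.28 on the log2 scale with siTAZ #2 (FDR 0.0011). CDK4 fell by 1.21 (FDR 0.0057; FDR 0.0503 without siNTC replicate 2), whereas CDK6, the other partner of the D-type cyclins, rose by 1.13 with siTAZ #2 (FDR 0.0030), from 62.2 to 136 CPM. CDK6 also rose by 0.68 with siTAZ #1 (FDR 0.020), and CCNE2, cyclin E2, rose by 1.60 (FDR 0.015). Both calls were lost without siNTC replicate 1 or 2, and that of CDK6 also in the exact test and with a block for replicate number. CCNA2, the cyclin that follows cyclin E, fell by 1.17 with siTAZ #2 (FDR 0.010), which was lost without siNTC replicate 1, siNTC replicate 2 or siTAZ #2 replicate 2 (highest FDR 0.0702). Without siNTC replicate 2, 1 of the 3 that fell was still called. The 1 gene lower in the direct test, CDK6 (-0.45, FDR 0.0498), was called under 7 of the 17 settings, and its call was lost when any 1 library other than siTAZ #1 replicate 2 was left out.

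Of the 13 genes of the RB family and E2F factors, 5 rose and 2 fell with siTAZ #1, and 1 rose and 6 fell with siTAZ #2 (medians 0.47 and -0.04). RB1 itself was at -0.26 with siTAZ #1 (FDR 0.47) and 0.29 with siTAZ #2 (FDR 0.40). E2F2, an activator of S phase genes, fell by 1.92 with siTAZ #2 (FDR 0.0050) from a mean of 8.54 to 2.25 CPM. E2F7, a repressor of the family, fell by 0.70 with siTAZ #2 (FDR 0.0071; lost without siNTC replicate 1 or 2). With siTAZ #1, E2F7 rose by 0.47 (FDR 0.032), a call that held under 9 of the 17 settings. E2F3 rose by 1.15 (FDR 0.0055) and E2F5 by 1.35 (FDR 0.0093) with siTAZ #1, both lost without siNTC replicate 1 or 2. E2F5 was also the gene that rose with siTAZ #2, by 1.13 (FDR 0.012). That call was lost without siNTC replicate 1, siNTC replicate 2 or siTAZ #2 replicate 1. Between the siRNAs, E2F5 differed by 0.22 (FDR 0.46). With siNTC replicate 1 or 2 left out, none of the 13 was called with siTAZ #1, and 2 or 1 fell with siTAZ #2. The 6 that fell with siTAZ #2 became 3 without siTAZ #2 replicate 1 or 2.

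Of the 14 E2F target genes of S phase entry, 1 rose and 13 were not called with siTAZ #1, whereas 11 fell and 3 were not called with siTAZ #2 (medians 0.09 and -0.67). The replicative helicase subunit MCM3 fell by 1.12 with siTAZ #2 (FDR 0.0013), from a mean of 187 to 85.9 CPM, and RRM2, a subunit of ribonucleotide reductase, by 0.67 (FDR 0.0032). PCNA, the sliding clamp that p21 binds, rose by 0.49 with siTAZ #1 (FDR 0.013; lost without siNTC replicate 1 or 2 and in the exact test) and was at -0.24 with siTAZ #2 (FDR 0.084). In the direct comparison 11 of the 14 were higher in siTAZ #1 (15.2% of all genes; median of the list 0.74), among them CDC6 by 1.29 (FDR 0.0016). The 11 that fell with siTAZ #2 became 5 without siNTC replicate 2 and 7 without siTAZ #2 replicate 1, and the 11 of the direct comparison became 4 in the exact test and 7 without siTAZ #2 replicate 2. Without siTAZ #1 replicate 1, 1 rose and 3 fell with siTAZ #1.

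Among 12 other inhibitors, activators and turnover genes, 1 rose with siTAZ #1, and 1 rose and 5 fell with siTAZ #2 (medians 0.15 and -0.30). The gene that rose was CDKN2D, the fourth INK4 inhibitor (p19INK4d), at 1.02 with siTAZ #1 (FDR 0.026) and 0.78 with siTAZ #2 (FDR 0.044), from a mean of 8.47 CPM in the controls to 17.1 and 14.6 CPM. Each CDKN2D call held under only 10 of the 17 settings and was lost without any 1 of the siNTC or siTAZ #2 libraries. SKP2, which recognises p27 for degradation, fell by 1.44 with siTAZ #2 (FDR 0.0010), from 71.4 to 26.4 CPM, under all settings, and its cofactor CKS1B fell by 0.87 (FDR 0.0096; lost without siNTC replicate 1 or 2). The RNA of CDKN1B and of SKP2 thus fell together with siTAZ #2. The 5 lower genes became 1 without siNTC replicate 2, 2 without siNTC replicate 1 and 3 without siTAZ #2 replicate 1 or 2.

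**Figure D4:**
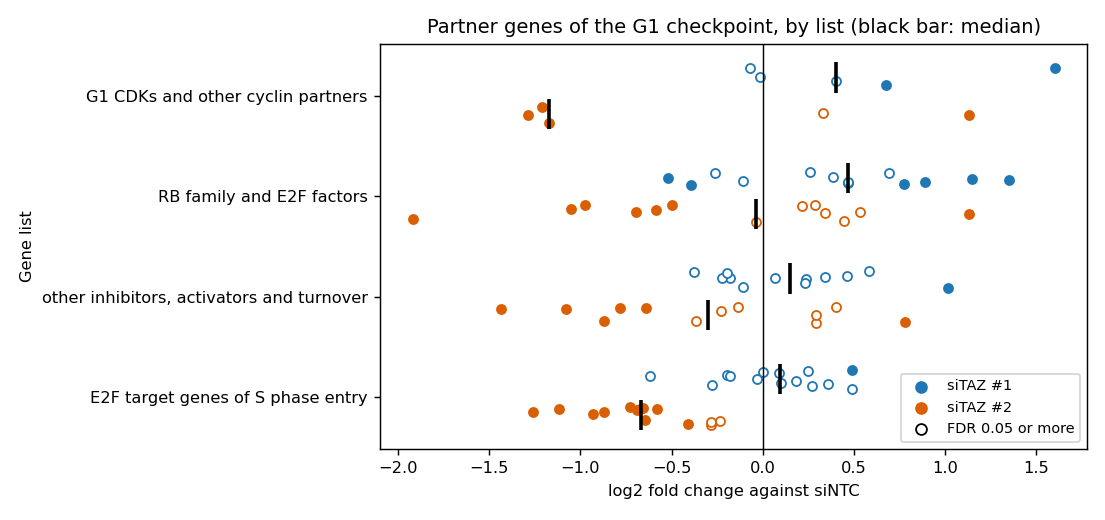
Each point is the log2 fold change (x axis) of 1 tested gene of 4 lists (rows) against siNTC, in blue with siTAZ #1 and in orange with siTAZ #2, filled where the FDR was under 0.05, and the black bar is the median of the list. The orange points of the E2F target genes lie below 0 with a median of -0.67, while the blue ones have a median of 0.09.

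Of 7 upstream transcription factors of these genes, 2 fell and 5 were not called with siTAZ #1, and 3 fell and 4 were not called with siTAZ #2 (medians -0.32 and -0.41). The 2 became 1 (FOXO3) without siNTC replicate 1 or 2. MYC, a repressor of CDKN1A and CDKN2B and an activator of CCND2, was at -0.35 with siTAZ #1 (FDR 0.22) and fell by 1.43 with siTAZ #2 (FDR 0.0040). KLF4, known as an activator of CDKN1A, fell by 3.39 with siTAZ #2 (FDR 0.0031), from 26.2 to 2.52 CPM. FOXO3, an activator of CDKN1B, fell by 1.37 with siTAZ #1 (FDR 0.00098) and was at -0.01 with siTAZ #2 (FDR 0.96). The part of the 7 factors in the changes of the genes described here was not tested. SMAD3, which carries TGF-β signals to CDKN2B, fell by 0.65 with siTAZ #1 (FDR 0.0054) and by 0.41 with siTAZ #2 (FDR 0.017), and both calls were lost without siNTC replicate 1 or 2, the first also in the exact test and the second also without siTAZ #2 replicate 1 or 2.

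Of 13 regulators and neighbours of the INK4 locus, 5 rose and 2 fell with siTAZ #1, and 3 rose and 3 fell with siTAZ #2 (medians 0.27 and 0.20). The 5 that rose with siTAZ #1 became 3 when siNTC replicate 1 was left out and 1 when siNTC replicate 2 was, and the 3 that rose with siTAZ #2 became 1 without siNTC replicate 1, siNTC replicate 2 or siTAZ #2 replicate 2 and 5 without siTAZ #1 replicate 1 or 2. ETS2, an activator of the locus, rose by 1.85 with siTAZ #1 (FDR 0.00087) and by 0.80 with siTAZ #2 (FDR 0.0051), from 78.4 to 282 and 137 CPM, under all settings. Its relative ETS1 fell by 0.48 (FDR 0.018; lost without siNTC replicate 1 or 2 and in the exact test) and by 0.52 (FDR 0.0099; lost without siNTC replicate 1, siTAZ #2 replicate 1 or siTAZ #2 replicate 2). The repressor TBX2 rose by 0.87 with siTAZ #1 (FDR 0.0033; FDR 0.0509 without siNTC replicate 2) and by 0.43 with siTAZ #2 (FDR 0.020; lost without siNTC replicate 1, siNTC replicate 2 or siTAZ #2 replicate 2), and the offset for GC content turned the second value to -0.08. EZH2, the Polycomb methyltransferase that silences the locus, was at -0.16 with siTAZ #1 (FDR 0.36) and fell by 0.84 with siTAZ #2 (FDR 0.0041). MTAP, the gene next to CDKN2A, fell by 0.45 with siTAZ #2 (FDR 0.041; lost without any 1 of the siNTC or siTAZ #2 libraries), and differed by 0.73 between the siRNAs (FDR 0.0091; lost without siTAZ #2 replicate 2 and in the exact test).

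Lastly, the genes most like CDKN2B and CDKN1A across the 6 libraries were looked up by Pearson r of log2 CPM, as a description with no test, since the libraries are the same and fall into 3 groups. BTD (r = 0.998), LOC729950 (r = 0.998) and SVIL (r = 0.997) were most like CDKN2B, and 24 of the other 14052 genes reached 0.99. LOC729950 was at 0.697 and 0.568 CPM with siNTC, 8.84 and 10.7 CPM with siTAZ #1 and 5.38 and 7.49 CPM with siTAZ #2, the same order of groups as CDKN2B. GUK1 (r = 0.9997), RHOB (r = 0.999) and ARHGEF40 (r = 0.998) were most like CDKN1A, and 31 genes reached 0.99. RHOB, a small GTPase gene, stood at 136 and 136 CPM with siNTC, 128 and 124 CPM with siTAZ #1 and 226 and 235 CPM with siTAZ #2, a smaller rise than that of CDKN1A with the same siRNA.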

How the data were processed

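Per the labels and the study's methods, total RNA of siRNA-transfected HFL-1 cells was sequenced on an Ion Proton, and the authors mapped the reads with TMAP (build hg19), then summarised them by gene in HTSeq 0.6.1. The deposited values were these raw counts, without normalization. Of 23368 entries, 13 held a date instead of a gene symbol (0.0458% to 0.0506% of a library) and were left out. Counts were filtered with filterByExpr, TMM-normalized and tested by quasi-likelihood in edgeR 4.0.16 (R 4.3.3), in 1 fit of 6 libraries, with Benjamini-Hochberg adjustment over 14053 genes and a threshold of 0.05. The fit was also run on simulated counts, which had a smaller spread than the common dispersion here and no near-missing region. No result given here rests on that run. Standard errors are the absolute log2 fold change over the root of F.

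The members and gene lists were chosen with earlier results of these data known, and 1 gene and 1 list are not reported here. Of the lists, the genes named were taken from the up to 4 per comparison with the lowest FDR under 0.05, and not all of these are named. RB1, and values of named genes in other comparisons, are given for context. The 17 alternative settings were DESeq2 1.42.0, the exact test and the fit on 4 libraries, scaling by RLE, by the upper quartile or by library totals, no low-count filter and a mean count of at least 50, a replicate block, omission of the region that begins at RANGAP1, an offset for GC content (known for 94.7% of genes), and each library left out. The same settings for the lists were added after seeing the data. Positions on GRCh37 (GENCODE) were found for 21478 entries, 1922 through a synonym.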

Additional observations from a re-analysis of the deposited data

Results flagged for a closer look

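For 5 of the 10 genes, the direct test found a difference between the siRNAs (log2 fold change, siTAZ #1 minus siTAZ #2, edgeR's quasi-likelihood test). The difference was -2.41 for CDKN1A (FDR 0.0005), 1.47 for CDKN1B (FDR 0.0023), 1.54 for CCND2 (FDR 0.015), 1.26 for CDKN2C (FDR 0.0093) and 1.34 for CDKN2A (FDR 0.036). CDKN1A and CDKN1B held this difference under all 17 alternative settings, while CDKN2A lost it under 6, CDKN2C under 2 and CCND2 under 1. WWTR1 was left at 26.4 and 28.4 CPM with siTAZ #1 and at 46.1 and 43.1 CPM with siTAZ #2. The part of the remaining TAZ RNA in these differences was not tested.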

How the results depend on the processing

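With 2 libraries per group, many calls were lost when 1 library was left out. Where 1 library remained in a group, its spread was taken from the other groups. The number of genes called among the 10 was 3 with siTAZ #1, 6 with siTAZ #2 and 5 between the siRNAs. Leaving out 1 library in turn gave 1 to 4 with siTAZ #1, 3 to 8 with siTAZ #2 and 3 to 7 between the siRNAs, while the share of all genes called ran from 3.8% to 34.8%, 9.08% to 41.4% and 12.3% to 38.6%. The exact test of edgeR on 4 libraries gave 1, 8 and 4 (7.74%, 46.7% and 10.7% of all genes). The replicate block gave 2, 5 and 4, with the calls of CCND3 (siTAZ #1), CCND2 (siTAZ #2) and CDKN2A (between the siRNAs) lost. The share of all genes called with that block is not given here, so these losses are not read as particular to the 10 genes. The labels do not say whether same-numbered libraries were handled together. Their deviations had correlations of -0.0007, 0.011 and -0.077 over all genes tested, the near-missing region of siTAZ #1 replicate 2 included. These correlations cannot decide whether the libraries were paired. Among single log2 fold changes (WWTR1 included), 506 kept direction and side of the threshold, 31 lost the call, 20 gained it and 4 turned. Those that turned were CDKN1B with siTAZ #1, at -0.15 to 0.26 with 1 library left out, and CDKN2C with siTAZ #1, at -0.19 to 0.35. The cause was not tested. Under the other scalings the median log2 fold change of all genes lay between -0.0469 and 0.0584.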
